A study of Mus musculus with 9 samples.

Results

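The passage from G1 into S phase is set by a small circuit of cyclins, cyclin-dependent kinases (CDKs) and CDK inhibitors, and 10 of its genes are described here in 3T3-L1 cells. They are the D-type cyclins Ccnd1, Ccnd2 and Ccnd3, the E-type cyclins Ccne1 and Ccne2, the CIP/KIP inhibitors Cdkn1a, Cdkn1b and Cdkn1c, and the INK4 inhibitors Cdkn2b and Cdkn2c. The genes were taken by symbol from the array annotation, and each was represented by the probe set, among those with a single gene symbol, of highest mean over all arrays. All 10 were measured, among 18193 genes in all, and they carried 23 of the 45037 probe sets tested.

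3T3-L1 is a clonal mouse fibroblast line that becomes fat cells on hormone treatment. The arrays fell into 3 groups of 3. PPAR gamma siRNA adipocytes had been differentiated for 2 days with insulin at 10 µg/ml, dexamethasone at 1 µM and the phosphodiesterase inhibitor IBMX at 0.5 mM. Insulin alone followed for 2 days. The cells are described as mature at day 8, with a conversion of at least 95%. They were then detached, electroporated with PPAR gamma siRNA 14 days after induction and plated again. Control siRNA adipocytes went through the same steps with a non-targeting oligonucleotide, and preadipocytes were the undifferentiated line. The siRNA amount was 2 or 3 nmol for both adipocyte groups, with no statement of which arrays had which, and neither the time to harvest nor the density of the preadipocyte cultures is given in the sources used here. Preadipocytes received neither electroporation nor siRNA, and wherever adipocytes are set against them these steps and differentiation cannot be told apart. The series calls its replicates technical, and p-values therefore reflect nothing beyond the spread among these samples, which may be technical. Each array holds RNA of a whole culture, so fewer cells of a type and less RNA per cell cannot be told apart.

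D-type cyclins pair with CDK4 and CDK6 and start the phosphorylation of the retinoblastoma protein RB, and E-type cyclins pair with CDK2 to complete it, which frees E2F factors to switch on S-phase genes. INK4 proteins bind CDK4 and CDK6 themselves, whereas CIP/KIP proteins bind whole cyclin-CDK complexes. In 3T3-L1 cultures, confluent preadipocytes divide again after the hormone cocktail and then leave the cell cycle for good as they fill with lipid. PPAR gamma, the nuclear receptor that drives this conversion, is encoded by Pparg.

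The labels were checked first. Pparg stood at 9.54, 9.58 and 9.64 on the log2 scale in PPAR gamma siRNA adipocytes, against 12.89, 12.82 and 12.65 in control siRNA adipocytes and 8.35, 8.20 and 8.12 in preadipocytes. It was 9.20-fold lower with PPAR gamma siRNA than with control siRNA (log2 difference -3.20 ± 0.09 SE, limma adjusted p = 1.27e-09), and no groups overlapped. The mean level of 8 measured adipocyte markers ranged from 9.81 to 9.93 in PPAR gamma siRNA adipocytes, from 12.02 to 12.06 in control siRNA adipocytes and from 5.31 to 5.50 in preadipocytes. For 7 preadipocyte and fibroblast markers it ranged from 11.24 to 11.73, from 9.62 to 9.93 and from 12.23 to 12.37 in the same groups. The pan-leukocyte gene Ptprc lay between 3.18 and 3.55 over all 9 arrays, below every array median (4.82 to 4.89). The mean of 6 endothelial markers ranged from 3.88 to 4.11 in PPAR gamma siRNA adipocytes, from 3.86 to 3.97 in control siRNA adipocytes and from 3.68 to 3.83 in preadipocytes. Of these 6, Kdr was called higher than in preadipocytes in PPAR gamma siRNA adipocytes (0.57 ± 0.15, adjusted p = 0.0123) and in control siRNA adipocytes (0.47 ± 0.15, adjusted p = 0.0217), and it read 5.14 to 5.65 over the adipocyte arrays. The mean of 7 macrophage markers nonetheless ranged from 5.25 to 5.49 in PPAR gamma siRNA adipocytes, up to 4.92 in control siRNA adipocytes and from 4.56 to 4.60 in preadipocytes. Of these 7, Cd14 and Cd68 were called higher with PPAR gamma siRNA than with control siRNA and the other 5 were not called. The median log2 difference of the 7 between the siRNAs was 0.08, against -0.01 over all genes. Against preadipocytes, Cd68 and Cd14 were called higher in PPAR gamma siRNA adipocytes (2.55 ± 0.22 and 1.89 ± 0.10, adjusted p = 3.87e-06 and 5.82e-08). In control siRNA adipocytes, Cd68 and Adgre1 were called higher (1.35 ± 0.22 and 0.43 ± 0.10, adjusted p = 2.98e-04 and 0.0046). The other 5 were not called in each case. The part of these markers in the results was not tested. Signs of RNA integrity were the 3' minus 5' probe set differences of Actb and Gapdh on the log2 scale. That of Actb was 0.54 to 1.25 in PPAR gamma siRNA adipocytes, 0.91 to 1.30 in control siRNA adipocytes and 0.23 to 0.36 in preadipocytes. That of Gapdh did not separate the groups, at -0.06 to 0.06 in PPAR gamma siRNA adipocytes, -0.12 to 0.11 in control siRNA adipocytes and -0.19 to -0.02 in preadipocytes.

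With PPAR gamma siRNA, 5 of the 10 genes rose and 3 fell against control siRNA. Ccnd1, Ccnd3, Cdkn1a, Cdkn1b and Cdkn2b were higher, Ccnd2, Ccne2 and Cdkn2c were lower, and Ccne1 and Cdkn1c did not pass the test. Calls required p under 0.05 in limma's moderated test after Benjamini-Hochberg adjustment over all probe sets. The 8 calls are 80% of the genes, where 35.9% of all genes tested were called (19.9% higher and 16.1% lower). The 35.9% includes dim genes. A filter on dim probe sets (5 or more in at least 3 arrays) left 9 of the members and 11724 of all genes. Of these, 5 members and 3718 genes were higher, and 3 members and 2867 genes were lower. The arrays of the siRNA groups did not overlap for 8 of 10 genes, against 44.4% of all genes, and the median log2 difference was 0.24 against -0.01 over all genes.

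In control siRNA adipocytes, 5 genes fell and 1 rose against preadipocytes. Ccnd1, Ccnd3, Cdkn1a, Cdkn1b and Cdkn2b were lower, and Cdkn2c was higher. The 6 calls are 60% of the genes, beside 51.8% of all genes (27.1% higher and 24.7% lower). Of the 11724 genes left by the filter on dim probe sets, 3920 were higher and 4408 lower. Arrays did not overlap for 7 of 10 genes, beside 61.5% of all genes, and the median log2 difference was -0.44 against 0.09. Both comparisons use the control siRNA arrays, so their values are given side by side and are not independent of each other.

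PPAR gamma siRNA adipocytes set against preadipocytes had 5 lower genes, Ccnd1, Ccnd2, Ccne1, Ccne2 and Cdkn1b, and 1 higher gene, Cdkn2c. That is 60% of the genes, where 36.5% of all genes were called (19.6% higher and 16.9% lower), and 8 of 10 had arrays that did not overlap, against 49.8%. With dim probe sets left out, 3347 of 11724 genes were higher and 3099 lower. The median log2 difference of the 10 genes was -0.34 against 0.07 over all genes. With the Actb difference as a covariate the counts were 5 higher and 3 lower, 1 higher and 4 lower, and 1 higher and 5 lower in the 3 comparisons, in the order just given. The Actb difference was higher on every adipocyte array than on any preadipocyte array. In comparisons with preadipocytes it therefore cannot be told apart from the group. Over all 18193 genes that setting called 3671 higher and 2798 lower, 3365 higher and 3877 lower, and 2677 higher and 2759 lower, where the fits without it called 3612 and 2922, 4932 and 4495, and 3558 and 3074.

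**Figure D1:**
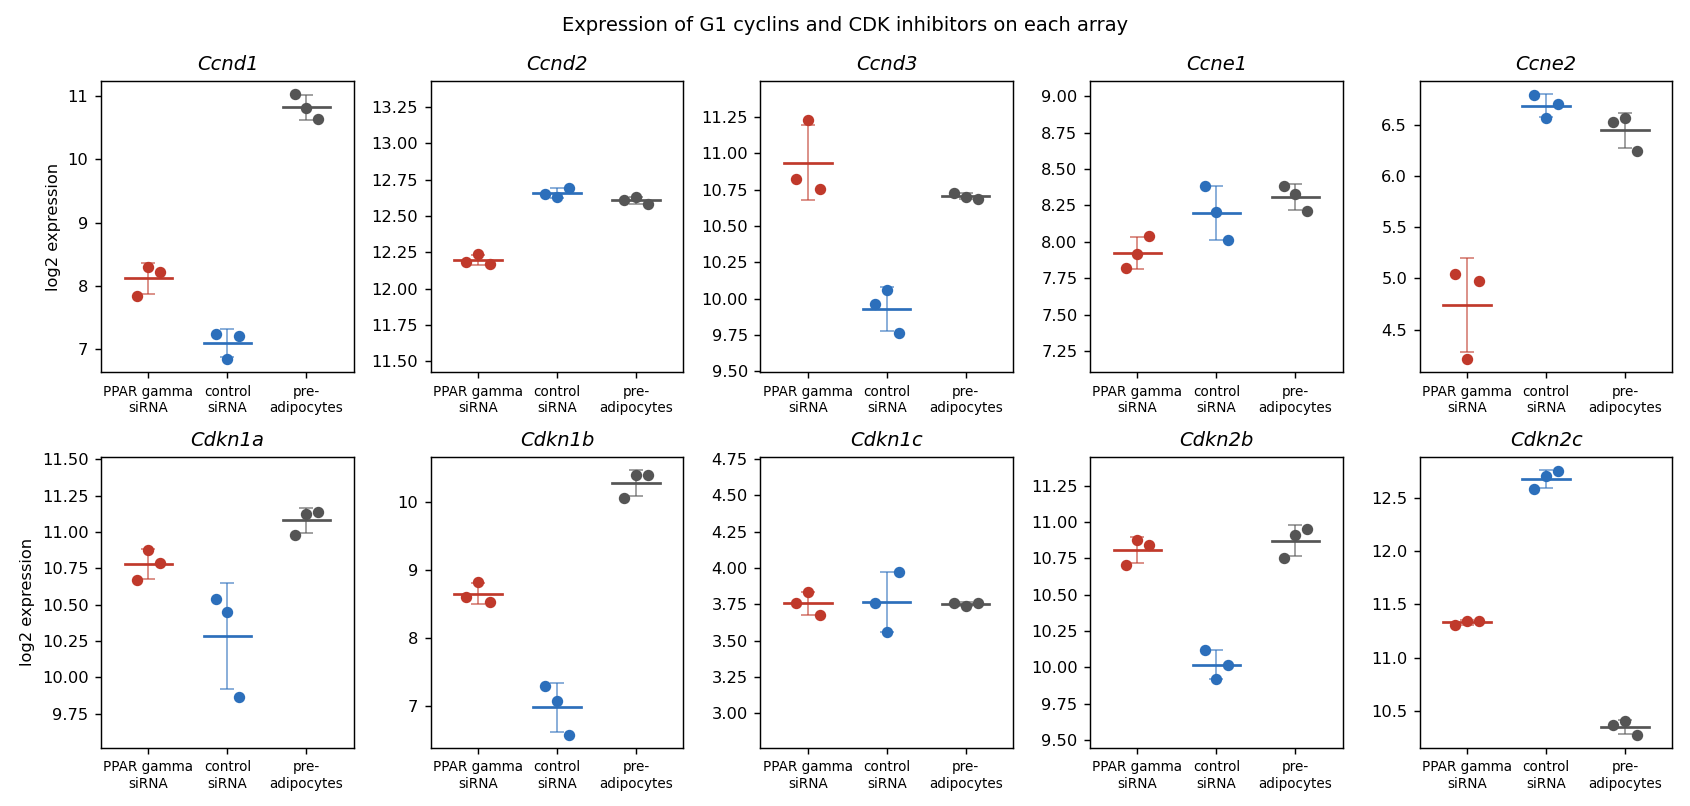
Log2 expression (y axis, each panel at least 2 log2 units high) of each gene on the 9 arrays, by group (x axis), with points for arrays, horizontal lines for group means and bars for the SD. Ccnd1 and Cdkn1b were lowest in control siRNA adipocytes and highest in preadipocytes, Cdkn2c had the opposite order, and Ccne2 was lowest in PPAR gamma siRNA adipocytes (4.74 ± 0.46).

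Cyclin D1, encoded by Ccnd1 and the D-type cyclin most often linked to growth factor signals, had the largest change of the 10 genes. It read 7.85, 8.30 and 8.22 in PPAR gamma siRNA adipocytes, against 7.24, 6.85 and 7.22 in control siRNA adipocytes and 11.03, 10.82 and 10.63 in preadipocytes. The 3 groups did not overlap, and every PPAR gamma siRNA array lay between the other groups. Ccnd1 rose 2.03-fold with PPAR gamma siRNA (log2 difference 1.02 ± 0.15 SE, limma adjusted p = 2.52e-04). It was lower in control siRNA adipocytes than in preadipocytes by a log2 difference of -3.72 ± 0.15 (adjusted p = 2.07e-09), a 13.2-fold change. In PPAR gamma siRNA adipocytes it was 6.52-fold lower than in preadipocytes (log2 difference -2.70 ± 0.15, adjusted p = 1.15e-07). All 3 probe sets of Ccnd1 passed in each comparison with these signs, and the smallest knockdown difference was 0.71 ± 0.13.

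Ccnd2, which encodes cyclin D2, moved the other way. Its values were 12.19, 12.24 and 12.17 in PPAR gamma siRNA adipocytes, against 12.65, 12.63 and 12.69 in control siRNA adipocytes and 12.61, 12.63 and 12.58 in preadipocytes. The PPAR gamma siRNA arrays lay below all others, while control siRNA adipocytes and preadipocytes overlapped. The fall against control siRNA was small but tight (log2 difference -0.46 ± 0.07, adjusted p = 5.45e-04), as was that against preadipocytes (-0.41 ± 0.07, adjusted p = 0.0013). Tested against a null of 1.2-fold, neither call held (adjusted p = 0.0721 and 0.193, the highest over the settings tried). Control siRNA adipocytes differed from preadipocytes by 0.05 ± 0.07 (adjusted p = 0.623). Of the 7 probe sets of Ccnd2, 6 fell with PPAR gamma siRNA, by log2 differences of -0.34 to -1.36. The remaining probe set gave -0.48 ± 0.37 with control siRNA arrays spread from 6.31 to 8.03. Against preadipocytes, 1 of the 6 was called higher in control siRNA adipocytes (0.37 ± 0.10, adjusted p = 0.0126). The same probe set did not pass for PPAR gamma siRNA adipocytes against preadipocytes (-0.18 ± 0.10, adjusted p = 0.243).

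Cyclin D3, encoded by Ccnd3, is the D-type cyclin described in cultured fat cells as a partner of PPAR gamma. Its values were 10.82, 11.23 and 10.75 in PPAR gamma siRNA adipocytes, against 9.96, 10.06 and 9.76 in control siRNA adipocytes and 10.73, 10.70 and 10.69 in preadipocytes. Control siRNA adipocytes lay below both other groups, by a wide margin on every array. Ccnd3 rose 2.01-fold with PPAR gamma siRNA (log2 difference 1.01 ± 0.13, adjusted p = 7.08e-05) and was lower in control siRNA adipocytes than in preadipocytes (-0.78 ± 0.13, adjusted p = 3.00e-04). The difference from preadipocytes lost its call with the Actb difference as a covariate, at -0.57 ± 0.21 (adjusted p = 0.0571). That covariate itself separated these groups, so its part and that of the group cannot be told apart. PPAR gamma siRNA adipocytes and preadipocytes differed by 0.23 ± 0.13, which did not pass (adjusted p = 0.210). The other probe sets of Ccnd3 differed less between the siRNAs. With PPAR gamma siRNA, 1 gave 0.28 ± 0.11 (adjusted p = 0.0729), and it was called lower in control siRNA adipocytes than in preadipocytes (-0.32 ± 0.11). The other, below 3.6 on all arrays, gave 0.00 ± 0.11 for knockdown. Against preadipocytes this dim probe set was called higher in control siRNA adipocytes (0.37 ± 0.11, adjusted p = 0.0179). It was also called higher in PPAR gamma siRNA adipocytes (0.37 ± 0.11, adjusted p = 0.0251).

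Neither E-type cyclin was called higher in any comparison. Ccne2, encoding cyclin E2, read 5.04, 4.21 and 4.98 in PPAR gamma siRNA adipocytes, against 6.79, 6.57 and 6.71 in control siRNA adipocytes and 6.53, 6.57 and 6.25 in preadipocytes. The PPAR gamma siRNA arrays were the lowest and the most spread. Ccne2 fell 3.86-fold against control siRNA (log2 difference -1.95 ± 0.19, adjusted p = 8.75e-06) and stood 3.26-fold below preadipocytes (-1.71 ± 0.19, adjusted p = 2.84e-05), and both calls held under all 20 other settings tried. Between control siRNA adipocytes and preadipocytes the difference was 0.24 ± 0.19 (adjusted p = 0.327). A single probe set measured Ccne2, and its mean of 4.74 in PPAR gamma siRNA adipocytes lay below the array medians, so if that signal is at the floor both folds understate the difference.

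Ccne1, encoding cyclin E1, had 7.82, 7.91 and 8.04 in PPAR gamma siRNA adipocytes, against 8.38, 8.21 and 8.01 in control siRNA adipocytes and 8.38, 8.33 and 8.21 in preadipocytes. The siRNA groups overlapped. The differences were -0.28 ± 0.11 against control siRNA (adjusted p = 0.0851) and -0.39 ± 0.11 against preadipocytes, which passed (adjusted p = 0.0183). That call rested on a probe set of the x type, which may match transcripts of other genes, and the other probe set gave -0.12 ± 0.16 (adjusted p = 0.633). It also ended without PPAR gamma siRNA replicate 1 or without preadipocyte replicate 1 or 2 (adjusted p = 0.0685, 0.0707 and 0.0618, and 0.0088 to 0.637 over all settings).

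**Figure D2:**
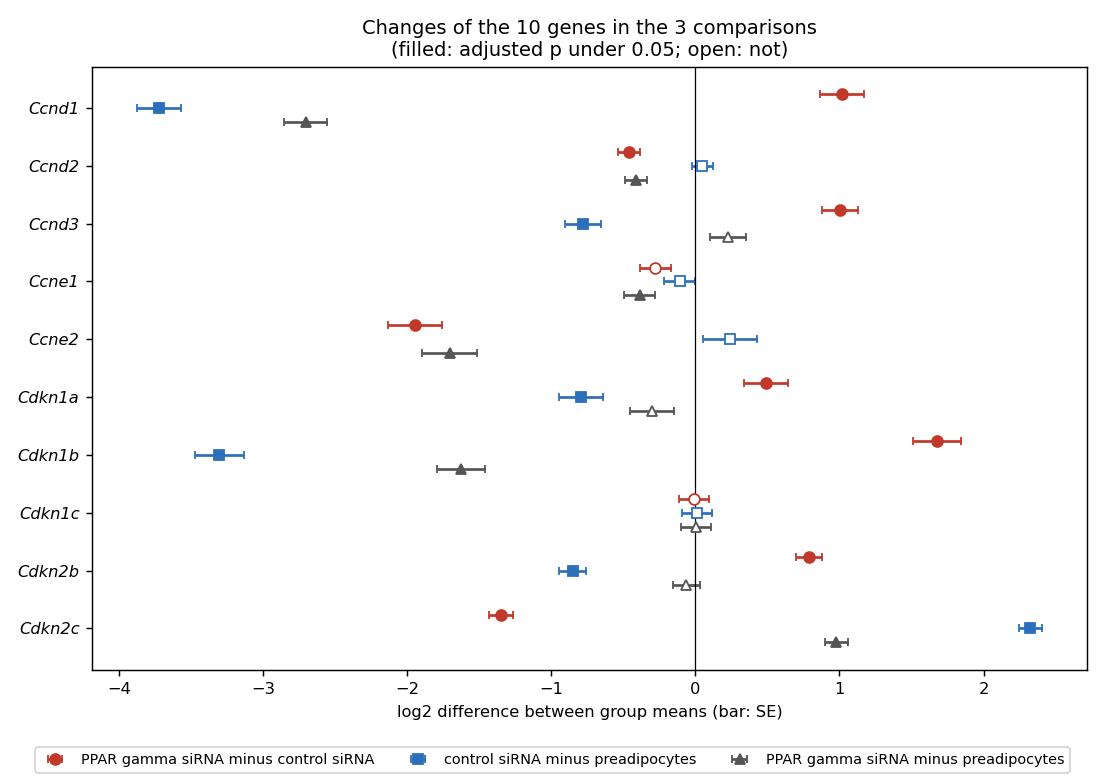
Log2 difference between group means (x axis, bars for SE) of the 10 genes (y axis) in the 3 comparisons, with filled symbols where the adjusted p was under 0.05. Ccnd1 (1.02) and Cdkn1b (1.68) rose with PPAR gamma siRNA and were lower in control siRNA adipocytes than in preadipocytes, and Cdkn2c had both signs reversed (-1.35 and 2.33).

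Among the CIP/KIP inhibitors, Cdkn1b changed most. It encodes p27, which holds cyclin E-CDK2 inactive in quiescent cells. Its values were 8.60, 8.83 and 8.52 in PPAR gamma siRNA adipocytes, against 7.28, 7.07 and 6.57 in control siRNA adipocytes and 10.06, 10.39 and 10.39 in preadipocytes. As for Ccnd1, no groups overlapped and the PPAR gamma siRNA arrays lay in between. Cdkn1b rose 3.19-fold with PPAR gamma siRNA (log2 difference 1.68 ± 0.17, adjusted p = 1.17e-05), and was 9.87-fold lower in control siRNA adipocytes than in preadipocytes (-3.30 ± 0.17, adjusted p = 1.41e-08). PPAR gamma siRNA adipocytes were below preadipocytes by -1.63 ± 0.17 (adjusted p = 1.67e-05). The second probe set gave smaller changes with the same signs, 0.81 ± 0.15 (adjusted p = 0.0011) and -1.06 ± 0.15 (adjusted p = 7.83e-05). Its control siRNA arrays (4.59, 4.64 and 4.53) lay below the array medians, so both changes may be understated. The difference of this probe set between PPAR gamma siRNA adipocytes and preadipocytes did not pass (-0.25 ± 0.15, adjusted p = 0.234).

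Cdkn1a encodes p21, the inhibitor induced by p53 after DNA damage. It stood at 10.67, 10.88 and 10.79 in PPAR gamma siRNA adipocytes, against 10.54, 10.45 and 9.87 in control siRNA adipocytes and 10.98, 11.12 and 11.14 in preadipocytes. Control siRNA replicate 3 was well below its group, and no groups overlapped. The rise with PPAR gamma siRNA was 0.49 ± 0.15 (adjusted p = 0.0316), and the difference of control siRNA adipocytes from preadipocytes was -0.79 ± 0.15 (adjusted p = 0.0011). Without control siRNA replicate 3 the rise was 0.28 ± 0.10 and lost its call (adjusted p = 0.0665). Without PPAR gamma siRNA replicate 2 or 3 it was also lost (adjusted p = 0.106 and 0.0734), and adjusted p ranged from 0.0123 to 0.373 over all settings. A second probe set of Cdkn1a passed in no comparison (0.20 ± 0.15 with PPAR gamma siRNA, -0.03 ± 0.15 for control siRNA adipocytes against preadipocytes).

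Cdkn1c, encoding p57, an imprinted inhibitor of embryonic tissues, was low throughout. Its values were 3.76, 3.83 and 3.68 in PPAR gamma siRNA adipocytes, against 3.76, 3.56 and 3.97 in control siRNA adipocytes and 3.76, 3.74 and 3.76 in preadipocytes. All 9 lay below the array medians, and the log2 differences were -0.01, 0.01 and 0.00, each ± 0.11, in the order of comparisons used above. At so low a signal a change may not be detectable.

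The INK4 genes moved in opposite directions. Cdkn2c, encoding p18, has been described in cultured fibroblasts as induced during PPAR gamma-driven fat cell differentiation. Its values were 11.31, 11.34 and 11.34 in PPAR gamma siRNA adipocytes, against 12.58, 12.70 and 12.75 in control siRNA adipocytes and 10.36, 10.41 and 10.28 in preadipocytes. The 3 groups were far apart, with PPAR gamma siRNA arrays between the others. Cdkn2c fell 2.54-fold with PPAR gamma siRNA (log2 difference -1.35 ± 0.08, adjusted p = 2.05e-07). Set against preadipocytes, it was 1.97-fold higher in PPAR gamma siRNA adipocytes (0.98 ± 0.08, adjusted p = 3.04e-06) and 5.01-fold higher in control siRNA adipocytes (2.33 ± 0.08, adjusted p = 6.88e-10). By representative probe sets, Cdkn2c alone of the 10 genes was called higher than in preadipocytes, in both adipocyte groups. The other probe sets of Ccnd2 and Ccnd3 that were called higher are given above. A single probe set measured Cdkn2c.

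Cdkn2b, encoding p15, an inhibitor induced by TGF-beta, read 10.71, 10.87 and 10.84 in PPAR gamma siRNA adipocytes, against 10.12, 9.92 and 10.01 in control siRNA adipocytes and 10.75, 10.91 and 10.95 in preadipocytes. Control siRNA adipocytes lay below the other groups, which overlapped. Cdkn2b rose with PPAR gamma siRNA by 0.79 ± 0.09 (adjusted p = 4.48e-05) and was lower in control siRNA adipocytes than in preadipocytes by -0.85 ± 0.09 (adjusted p = 1.15e-05). PPAR gamma siRNA adipocytes differed from preadipocytes by -0.06 ± 0.09 (adjusted p = 0.667). Its neighbour in the mouse genome is Cdkn2a, which encodes the INK4 inhibitor p16 and the p53 activator p19ARF. Cdkn2a had larger changes than Cdkn2b, with the same signs, in both comparisons that include control siRNA adipocytes. It stood at 9.53, 9.53 and 9.44 in PPAR gamma siRNA adipocytes, against 7.90, 7.82 and 7.59 in control siRNA adipocytes and 9.41, 9.54 and 9.48 in preadipocytes (1.73 ± 0.10, adjusted p = 1.01e-07, with PPAR gamma siRNA). Cdkn2a was lower in control siRNA adipocytes than in preadipocytes by -1.71 ± 0.10 (adjusted p = 3.21e-08). In PPAR gamma siRNA adipocytes Cdkn2a differed from preadipocytes by 0.02 ± 0.10 (adjusted p = 0.885). Its probe set is of the type shared by several transcripts of a gene, so the p16 and p19ARF transcripts cannot be told apart.

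**Figure D3:**
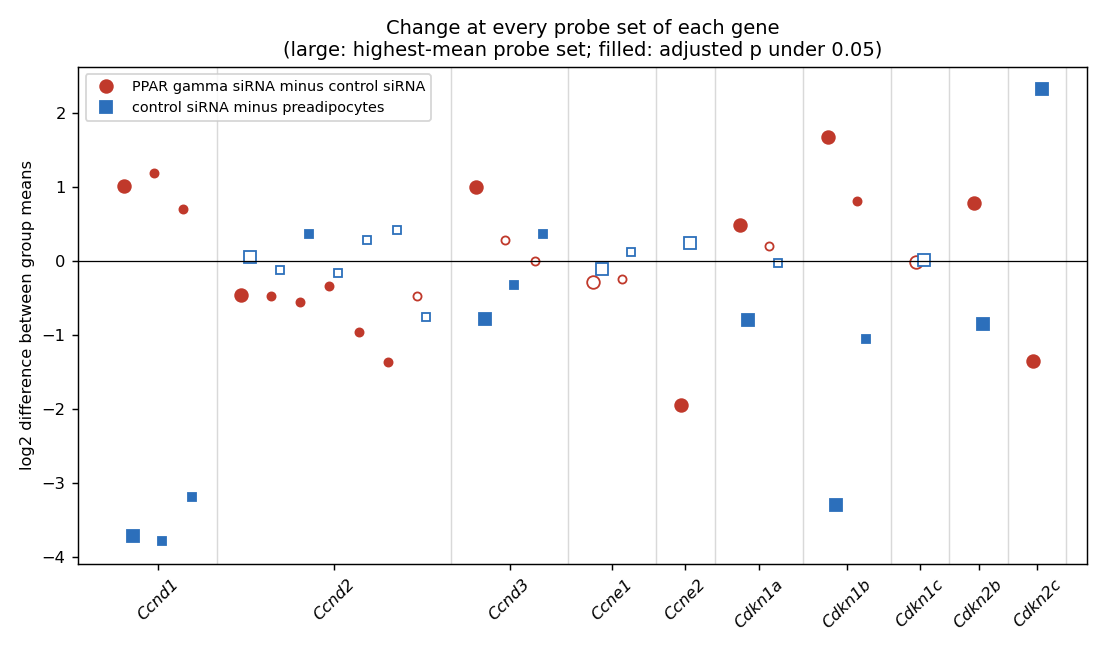
Log2 difference between group means (y axis) at each of the 23 probe sets, grouped by gene (x axis), for PPAR gamma siRNA minus control siRNA and control siRNA minus preadipocytes. Large symbols are the representative probe sets, and filled symbols passed the test. The probe sets of Ccnd1 and Cdkn1b kept their signs, with Cdkn1b at 1.68 and 0.81, while those of Ccnd3 spanned 0.00 to 1.01 in the first comparison.

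The bases before the transcription start are shown for 4 inhibitors and Ccnd3, because Cdkn1a, Cdkn1b, Cdkn2b and Ccnd3 were all lowest in control siRNA adipocytes and Cdkn2c was highest there. Sequences are from RefSeq, build GRCm38.p6, on the strand of the gene, and 6 of the 10 genes had a window in that table. They are Ccnd3, Ccne1, Cdkn1a, Cdkn1b, Cdkn2b and Cdkn2c, with 9 windows in all since some genes have several starts. Capitals mark matches to the motifs described after the sequences.
Cdkn2c, chr4:109666757-109666856, minus strand: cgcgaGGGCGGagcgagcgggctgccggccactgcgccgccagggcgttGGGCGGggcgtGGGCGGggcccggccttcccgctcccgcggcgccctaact
Cdkn1b, chr6:134920236-134920400, plus strand: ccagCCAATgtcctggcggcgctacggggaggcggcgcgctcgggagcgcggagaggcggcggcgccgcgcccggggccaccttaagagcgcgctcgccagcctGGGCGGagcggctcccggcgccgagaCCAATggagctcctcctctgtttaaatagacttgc
Cdkn2b, chr4:89311033-89311132, minus strand: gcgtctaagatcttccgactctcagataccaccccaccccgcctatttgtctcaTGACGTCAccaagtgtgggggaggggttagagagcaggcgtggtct
Cdkn1a upstream start, chr17:29090879-29090978, plus strand: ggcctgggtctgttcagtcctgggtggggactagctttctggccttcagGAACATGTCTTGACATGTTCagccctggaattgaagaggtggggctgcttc
Cdkn1a downstream start, chr17:29093669-29093768, plus strand: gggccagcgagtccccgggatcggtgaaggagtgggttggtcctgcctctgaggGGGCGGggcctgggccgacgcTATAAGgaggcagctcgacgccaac
Ccnd3 downstream start, chr17:47593317-47593466, plus strand: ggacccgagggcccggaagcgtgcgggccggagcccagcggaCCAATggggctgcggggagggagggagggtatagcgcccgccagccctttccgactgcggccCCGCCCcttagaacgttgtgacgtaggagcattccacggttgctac

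Motifs were searched on both strands of the 250 bases before each start. The SP1 motif GGGCGG, printed as its reverse complement in the stretch of Ccnd3, was in 6 of the 9 windows and in 32.7% of all 32851 windows. The letters CCAAT, a promoter box, were in those of Cdkn1b and Ccnd3 and in 33.8% of all windows. TGACGTCA, the element bound by CREB, lay 46 bases before the start of Cdkn2b and occurs in 1.55% of windows. The capitals before the upstream start of Cdkn1a match the 20-base p53 response element with 1 letter off, a match found in 0.0761% of windows, and TATAAG before its downstream start is a TATA box form, found with the related form TATAAA in 17.0% of windows. The E2F forms TTTCCCGC, TTTGGCGC, TTTCGCGC and TTTGCCGC (1.86% of windows) and the PPAR-RXR direct repeat (0.0335%) were in none of the 9. The core AGGTCA alone, part of that repeat, was in a further window of Cdkn2c and of Ccnd3 not printed here and in 14.0% of all windows, and the FOXO motif GTAAACA in the same window of Ccnd3 and in 3.17%. A match is a description of letters, and the arrays measured no binding.

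The partners of these genes were read on the same arrays. Cdk4, the catalytic partner of D-type cyclins, read 11.11, 11.30 and 11.07 in PPAR gamma siRNA adipocytes, against 10.07, 9.95 and 9.88 in control siRNA adipocytes and 11.70, 11.75 and 11.73 in preadipocytes. It rose by 1.19 ± 0.09 with PPAR gamma siRNA (adjusted p = 1.28e-06) and was lower in control siRNA adipocytes than in preadipocytes by -1.76 ± 0.09 (adjusted p = 1.63e-08). Its probe set is of the x type. Cdk6, the alternative partner, fell in both of these comparisons (-0.59 ± 0.10 and -0.37 ± 0.10). Of 7 CDKs and genes that activate them, 3 rose and 2 fell with PPAR gamma siRNA, where 35.9% of all genes were called. In control siRNA adipocytes 4 were lower than in preadipocytes and none higher, a share near the 51.8% of all genes called there. Among 3 inhibitors outside the 10 genes, Cdkn2a and Cdkn3 rose with PPAR gamma siRNA, and Cdkn2d, encoding p19, did not pass at -0.09 ± 0.09 (adjusted p = 0.572).

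Rb1, which encodes RB, had the order of Cdkn2c. Its values were 8.68, 8.63 and 8.78 in PPAR gamma siRNA adipocytes, against 9.69, 9.69 and 9.84 in control siRNA adipocytes and 7.07, 7.14 and 7.18 in preadipocytes. The 3 groups were separate, with log2 differences of -1.04 ± 0.08 for knockdown (adjusted p = 2.16e-06) and 2.61 ± 0.08 for control siRNA adipocytes against preadipocytes (adjusted p = 3.85e-10). The related gene Rbl2 rose with PPAR gamma siRNA by 0.52 ± 0.09 and Rbl1 fell by 0.48 (± 0.13). Of 10 E2F and DP factors, 1 rose and 3 fell with PPAR gamma siRNA, a share (4 of 10) near the 35.9% of all genes called there, with E2f1, an activator, at 0.49 ± 0.12 and E2f6, a repressor, at -1.19 ± 0.08. In control siRNA adipocytes 3 were higher and 6 lower than in preadipocytes, where 51.8% of all genes were called. The repressor E2f7 was among the lower ones, at -2.01 ± 0.16, a difference that may be understated because its control siRNA arrays (3.59 to 3.90) lay below the array medians.

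S-phase genes driven by E2F stood below preadipocytes in both adipocyte groups. Of 13 measured, 6 rose and 1 fell with PPAR gamma siRNA against control siRNA (median log2 difference 0.37, against -0.01 over all genes), with the helicase subunit Mcm6 at 1.08 ± 0.15, the S-phase cyclin Ccna2 at 0.70 ± 0.14 and the replication licensing factor Cdc6, dim with PPAR gamma siRNA at a mean of 4.33, at -0.70 ± 0.18. These 7 calls of 13 stand beside 35.9% of all genes. For Mcm4, 1 of the 6 that rose, the siRNA groups overlapped (0.37 ± 0.12, adjusted p = 0.0411). All 13 were lower than in preadipocytes in PPAR gamma siRNA adipocytes (median -1.50) and in control siRNA adipocytes (median -2.01). The proliferation marker Mki67 stood at 5.60, 6.78 and 6.65 in PPAR gamma siRNA adipocytes, against 5.89, 5.56 and 6.15 in control siRNA adipocytes and 8.35, 8.11 and 7.95 in preadipocytes. The siRNA groups overlapped for Mki67 (difference 0.47 ± 0.26, adjusted p = 0.242), and both lay well below preadipocytes. Of 8 proliferating cell markers, 2 rose with PPAR gamma siRNA, where 35.9% of all genes were called. They were Ccna2, already counted among the S-phase genes, and Bub1, whose siRNA groups overlapped. All 8 were lower than in preadipocytes in each adipocyte group. Against preadipocytes, 36.5% of all genes were called in PPAR gamma siRNA adipocytes and 51.8% in control siRNA adipocytes. The part of dividing cells in the differences of the 10 genes from preadipocytes was not tested.

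Of 9 measured p53 target genes other than Cdkn1a, 6 rose and 1 fell with PPAR gamma siRNA (median log2 difference 0.62, against -0.01 over all genes). In that comparison 35.9% of all genes were called, 19.9% higher and 16.1% lower. The stress gene Gadd45a rose by 0.81 ± 0.15 (adjusted p = 0.0012) and Trp53inp1 by 0.81 ± 0.11 (adjusted p = 1.22e-04), whereas Phlda3, an inhibitor of AKT signalling, was lower at -1.43 ± 0.09 (adjusted p = 3.14e-07). Against preadipocytes the control siRNA adipocytes had 3 higher and 4 lower of the 9, where 51.8% of all genes were called. The cell cycle repressor Btg2 was at 1.51 ± 0.12 and Zmat3 at -2.01 ± 0.11. Trp53 itself was not analysed here.

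**Figure D4:**
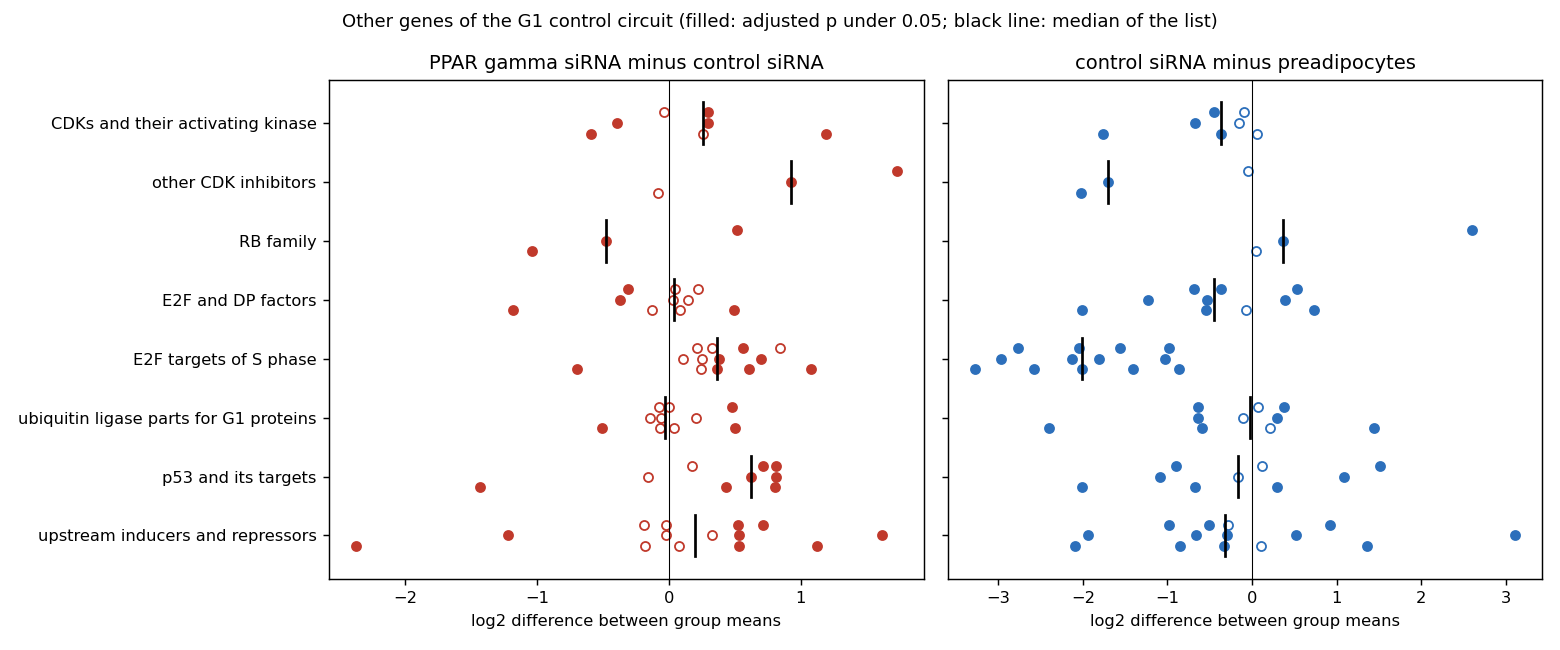
Log2 difference between group means (x axis) of the other genes of the circuit, by list (y axis), for PPAR gamma siRNA minus control siRNA (left) and control siRNA minus preadipocytes (right). Filled points passed the test, and black lines are list medians. S-phase genes had medians of 0.37 and -2.01, and the 9 p53 targets 0.62 and -0.17.

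For the 5 members whose group means spanned at least 1 log2 unit, the genes of most similar pattern were sought among 18183 others. Similarity was the root mean square difference between the centred log2 values of the genes over the 9 arrays, in log2 units, and it reflects the 3 groups more than single arrays. Cdkn2c had the closest companions, Acadm at 0.06 and Agpat3 at 0.06. Acadm averaged 11.45 in PPAR gamma siRNA adipocytes, 12.80 in control siRNA adipocytes and 10.49 in preadipocytes. The nearest genes to Ccnd1 were Chst2 (0.11) and Atp1b1 (0.15), and those to Ccnd3 were Nde1 (0.11) and Igf2 (0.12). Cdkn1b was nearest to Zfp41 (0.17) and Mmp2 (0.19), and Ccne2 to Ifi27l2a (0.17) and Denr (0.23).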

How the data were processed

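Total RNA of 9 samples was hybridised to single-colour oligonucleotide arrays, 1 sample each. The deposited values are log2 probe set summaries. No source states the scale, which follows from values between 2.41 and 14.59, and array medians were alike (4.82 to 4.89). Per the submitters' processing notes the tools were MAS5, RMA and affy 1.16.0, with no role or order given. How background was corrected is not stated there. Values were used without further scaling. The 64 control probe sets were left out, and 45037 were fitted in limma 3.58.1 (R 4.3.3) with a mean for each of the 3 groups. Tests were two-sided. The fit was tested on simulated data.

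The array annotation was that of the platform. Named genes were the 10 members, Pparg, of each companion list up to 2 called genes of largest rise and 2 of largest fall per comparison, and the 2 genes nearest in pattern to a member. Cdkn2d, Mki67, Ptprc and Mcm4 lie outside this rule and were chosen after their values were seen. Promoter sequences came from RefSeq. Members and lists were chosen with earlier results of these data known. The number of arrays limits precision. Same-numbered arrays of different groups did not deviate together (correlations from -0.18 to 0.13).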

Additional observations from a re-analysis of the deposited data

How the results depend on the processing

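With 20 other settings, 579 of 597 member values kept their call or lack of it, 14 lost a call, 4 gained a call and no called value reversed. Among the 579, 13 values without a call changed sign, lying between -0.09 and 0.13. The settings were renewed quantile normalisation, median centring, a filter on dim probe sets (5 or more in at least 3 arrays, which drops Cdkn1c), fits of 2 groups at a time, robust variances with an intensity trend, averaging over the probe sets of each gene, leaving out x and s probe sets, a replicate block, a test against 1.2-fold, the Actb covariate, each array left out, and, chosen after seeing the data, a fit lacking both PPAR gamma siRNA replicate 3 and control siRNA replicate 1. Counts of called members stayed within 1.5 times, except that the test against 1.2-fold left 3 lower genes between PPAR gamma siRNA adipocytes and preadipocytes, where 5 were reported. Leaving out single arrays gave 4 to 5 higher and 3 to 4 lower genes between the siRNAs, and 4 to 6 lower against preadipocytes with PPAR gamma siRNA, while all 18193 genes gave 3137 to 3563 higher and 2562 to 2824 lower, and 2555 to 3103 lower. The test against 1.2-fold called 1762 of all genes lower in the last comparison, against 3074. With replicate number as a block the counts were 5 higher and 3 lower between the siRNAs, and the numbers are labels only. No detection call was used here, so dim genes such as Cdkn1c cannot be called absent.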

Other observations

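Genes that act on the members from upstream, or remove their proteins, were not described above. Of 14 inducers and repressors, 6 rose and 2 fell with PPAR gamma siRNA, beside 35.9% of all genes called. Smad3, which carries TGF-beta signals to genes such as Cdkn2b, read 8.75, 9.01 and 9.05 in PPAR gamma siRNA adipocytes, against 7.48, 7.35 and 7.12 in control siRNA adipocytes and 9.46, 9.41 and 9.36 in preadipocytes. It rose by 1.62 ± 0.11 with PPAR gamma siRNA (limma adjusted p = 5.85e-07), and no groups overlapped. Klf6 rose by 1.13 ± 0.15. Cebpa, a fat cell transcription factor that also arrests growth, had -2.37 ± 0.17, and the growth regulator Myc -1.22 ± 0.16, with Myc at 7.03 ± 0.27 in PPAR gamma siRNA adipocytes, 8.25 ± 0.16 in control siRNA adipocytes and 7.33 ± 0.27 in preadipocytes (SD, n = 3 arrays each, adjusted p = 9.86e-05 between the siRNAs).

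Among 10 ubiquitin ligase parts that act on G1 proteins, 2 rose and 1 fell with PPAR gamma siRNA, a share near that of all genes. For Ambra1, 1 of the 2 that rose, the siRNA groups overlapped (0.50 ± 0.17, limma adjusted p = 0.0456). Skp2, which marks p27 for destruction, read 6.80, 6.74 and 6.79 in PPAR gamma siRNA adipocytes, against 6.57, 6.14 and 6.17 in control siRNA adipocytes and 8.77, 8.64 and 8.65 in preadipocytes. It rose by 0.48 ± 0.11 with PPAR gamma siRNA (limma adjusted p = 0.0069), and control siRNA adipocytes stood below preadipocytes by -2.39 ± 0.11 (adjusted p = 7.86e-09). Fbxo31, a ligase part for cyclin D1, was at -0.51 ± 0.08 between the siRNAs and at 1.44 ± 0.08 in control siRNA adipocytes against preadipocytes. These are transcript levels, and protein levels were not measured.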
